A study of Mus musculus with 8 samples.

Results

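Hormone-patterned liver genes are genes whose level in hepatocytes follows the timing of growth hormone in the blood. Of these, 10 were named and 9 were found among 15210 listed genes by their symbols: Sult2a1, Sult2a2, Sult2a7, Sult3a1, Cyp2a4, Cyp17a1, Cux2, Hao2 and A1bg. The other, Sult3a2, was not listed under that symbol, and its older symbol in RefSeq, Gm4794, was listed and is described beside Sult3a1 without being counted. The Cyp3a and Cyp2b genes, some of which respond to the same hormone, were left out of the set by its definition. The genes were chosen with earlier results on these mice known, among them the wide scatter between mice.

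The livers came from 8 female mice of the F1-TKm30 line, 17 or 21 weeks old, with no label tying an age to a mouse, and their total RNA was sequenced. F1-TKm30 is a line on the immunodeficient NOG background, and every mouse in both groups expresses HSVtk mutant clone 30, a viral thymidine kinase, under the enhancer and promoter of mouse transthyretin, which act mainly in hepatocytes. The 4 MOCA mice received 4,4'-methylenebis(2-chlorobenzenamine) (a hardener for polyurethane resins) at a level of 0.05% over 4 weeks, and the 4 control mice received 0%; no label states the route. Levels are TMM-scaled CPM, that is read counts scaled to a common library size after the authors' scaling between libraries, and each mouse gave 1 library of 15024945 to 15970453 reads in the MOCA group and 16077424 to 17101844 reads in the control group. Levels are not divided by transcript length, so they are compared between mice and not between genes.

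In rodents the pituitary of males releases growth hormone in separated pulses, and that of females releases it almost continuously. In mouse hepatocytes the signal passes through the growth hormone receptor, the kinase JAK2 and the transcription factor STAT5B, and with HNF6 (Onecut1), BCL6 and CUX2 it sets which genes are female-predominant and which are male-predominant. The female-predominant set is rich in sulfotransferases and P450 enzymes that modify steroids and bile acids, and CUX2 is itself a female-predominant factor that represses male-predominant genes.

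The Sult2a genes lie side by side on chromosome 7 and are alike in sequence, which bears on how far their levels can be read separately. The lines below show the same stretch of coding sequence in the 3 Sult2a members, from coding base 172 to 261 of Sult2a1, read from GENCODE M21 transcripts of mm10; capitals mark the positions at which the 3 are not all the same.
Sult2a1: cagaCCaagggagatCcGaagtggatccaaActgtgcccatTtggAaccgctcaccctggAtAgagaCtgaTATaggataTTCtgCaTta
Sult2a2: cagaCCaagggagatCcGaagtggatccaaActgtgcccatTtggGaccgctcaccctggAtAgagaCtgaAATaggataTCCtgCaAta
Sult2a7: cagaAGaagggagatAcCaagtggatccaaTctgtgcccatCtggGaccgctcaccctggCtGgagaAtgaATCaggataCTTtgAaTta
In this stretch, which was the one of its length with the most differences between Sult2a1 and Sult2a2, those genes differed at 4 of 90 bases, and Sult2a7 differed from Sult2a1 at 16. Over the aligned coding sequence Sult2a1 and Sult2a2 were 97.9% identical (585 bases in the annotated Sult2a2 model), Sult2a1 and Sult2a7 81.3%, Sult3a1 and Sult3a2 90.9%, and Cyp2a4 and its neighbour Cyp2a5 98.5%. Of the stretches of 50 bases in their transcripts, 33.2% in Sult2a1, 62.1% in Sult2a2, 38% in Cyp2a4 and 6.15% in Sult3a1 also occurred in another gene, and 0% did in Sult2a7, Cyp17a1, Cux2, Hao2 and A1bg. No source used here says how the counting shared reads between such copies, so the separate levels of Sult2a1, Sult2a2 and Cyp2a4 are uncertain, and their sums with the close copies are given as well.

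Sult2a1 and Sult2a2 encode sulfotransferases that add sulfate to hydroxysteroids and bile acids. Sult2a1 (chromosome 7, 13796246 to 13837410 on mm10) was 196, 27.3, 16.5 and 79.9 in MOCA mice 1 to 4, against 31.5, 108, 44.4 and 16.5 in control mice 1 to 4. The highest mouse exceeded the lowest 11.9-fold within the MOCA group and 6.54-fold within the control group, and the groups overlapped over most of their range. Sult2a2 (chromosome 7, 13733506 to 13779637) was 117, 27.9, 20.02 and 67.2 in MOCA mice, against 33.8, 80.0, 44.2 and 19.0 in control mice, the same order of mice in each group as for Sult2a1. Summed over the pair, the level was 312, 55.2, 36.5 and 147 in MOCA mice and 65.3, 188, 88.6 and 35.5 in control mice, so the scatter stood in the sum as well, with a coefficient of variation of 91.5% and 70.1%. The ratio of Sult2a1 to Sult2a2 was itself higher in the mice with more of both: it was 1.67, 0.977, 0.822 and 1.19 in MOCA mice and 0.935, 1.35, 1.01 and 0.870 in control mice. The close copies Sult2a5 and Sult2a6, which are not members, had the same high mice, with Sult2a5 at 46.6, 11.4, 9.33 and 30.4 in MOCA mice, against 11.5, 33.1, 20.1 and 8.22 in control mice.

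Sult2a7 is another sulfotransferase of the cluster (chromosome 7, 14465051 to 14493023). Its level was low, at 1.78, 1.29, 1.81 and 1.59 in MOCA mice, against 0.813, 0.966, 0.555 and 0.660 in control mice. These values rest on 20 to 28 reads per MOCA library and 9 to 15 reads per control library. All 4 MOCA values lay above all 4 control values, and within a group the mice differed by 1.41-fold (MOCA) and 1.74-fold (control). It was tested only because the MOCA mice passed the minimum of 1 that the control mice all missed. Sult2a8, a gene of the same cluster that is not a member, varied less than Sult2a1 and Sult2a2. It was 494, 305, 384 and 463 in MOCA mice, against 340.2, 409, 396 and 362 in control mice. The range was 1.62-fold among MOCA mice and 1.20-fold among control mice. Its pooled within-group SD of log2(value + 1), 0.24, was still at the 83.0th percentile of tested genes.

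Sult3a1 encodes a sulfotransferase that in the mouse acts on amines (chromosome 10, 33851020 to 33879475). It was 1207, 623, 527 and 1036 in MOCA mice, against 776, 707, 428 and 475 in control mice. MOCA mice 1 and 4 were above every control mouse, and MOCA mice 2 and 3 lay inside the control range. Gm4794, the gene that RefSeq now names Sult3a2, was 384, 162, 122 and 314 in MOCA mice, against 196, 164, 87.5 and 102 in control mice, with the same mice highest in each group as for Sult3a1.

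The members that encode steroid P450 enzymes are Cyp2a4, which hydroxylates testosterone, and Cyp17a1, which acts in sex steroid synthesis. Cyp2a4 (chromosome 7, 26307192 to 26315088) was 949.9, 325, 436 and 765 in MOCA mice, against 218, 471, 263 and 247 in control mice. MOCA mice 1 and 4 were above every control mouse, while the other MOCA mice fell between the highest control mouse and the remaining control mice. The sum of Cyp2a4 and Cyp2a5 was 1429, 616, 772 and 1243 in MOCA mice, against 418, 977, 606 and 557 in control mice. Cyp17a1 (chromosome 19, 46667165 to 46673000) was 10.5, 3.74, 1.75 and 4.03 in MOCA mice, against 3.95, 9.72, 5.68 and 5.16 in control mice. MOCA mouse 1 and control mouse 2 stood above the rest, and MOCA mouse 3, with 27 reads, was the lowest.

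The remaining members are a transcription factor, a peroxisomal enzyme and a plasma protein. Cux2 (chromosome 5, 121857962 to 122050415) was 49.4, 44.9, 17.8 and 51.3 in MOCA mice, against 39.3, 48.8, 77.7 and 25.1 in control mice. Here control mouse 3 was the highest, unlike in the enzymes, and the groups overlapped. Hao2, a hydroxy acid oxidase of peroxisomes (chromosome 3, 98874519 to 98895376), was 139, 68.2, 56.3 and 146 in MOCA mice, against 62.3, 101, 93.0 and 75.6 in control mice. MOCA mice 1 and 4 were above all control mice. A1bg, a plasma glycoprotein of the immunoglobulin superfamily (chromosome 15, 60917589 to 60921270), was 632, 76.5, 71.6 and 1076 in MOCA mice, against 135, 369, 180 and 208 in control mice. The MOCA mice lay on both sides of the whole control range, a 15.0-fold difference among them, against 2.73-fold among control mice.

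**Figure D1:**
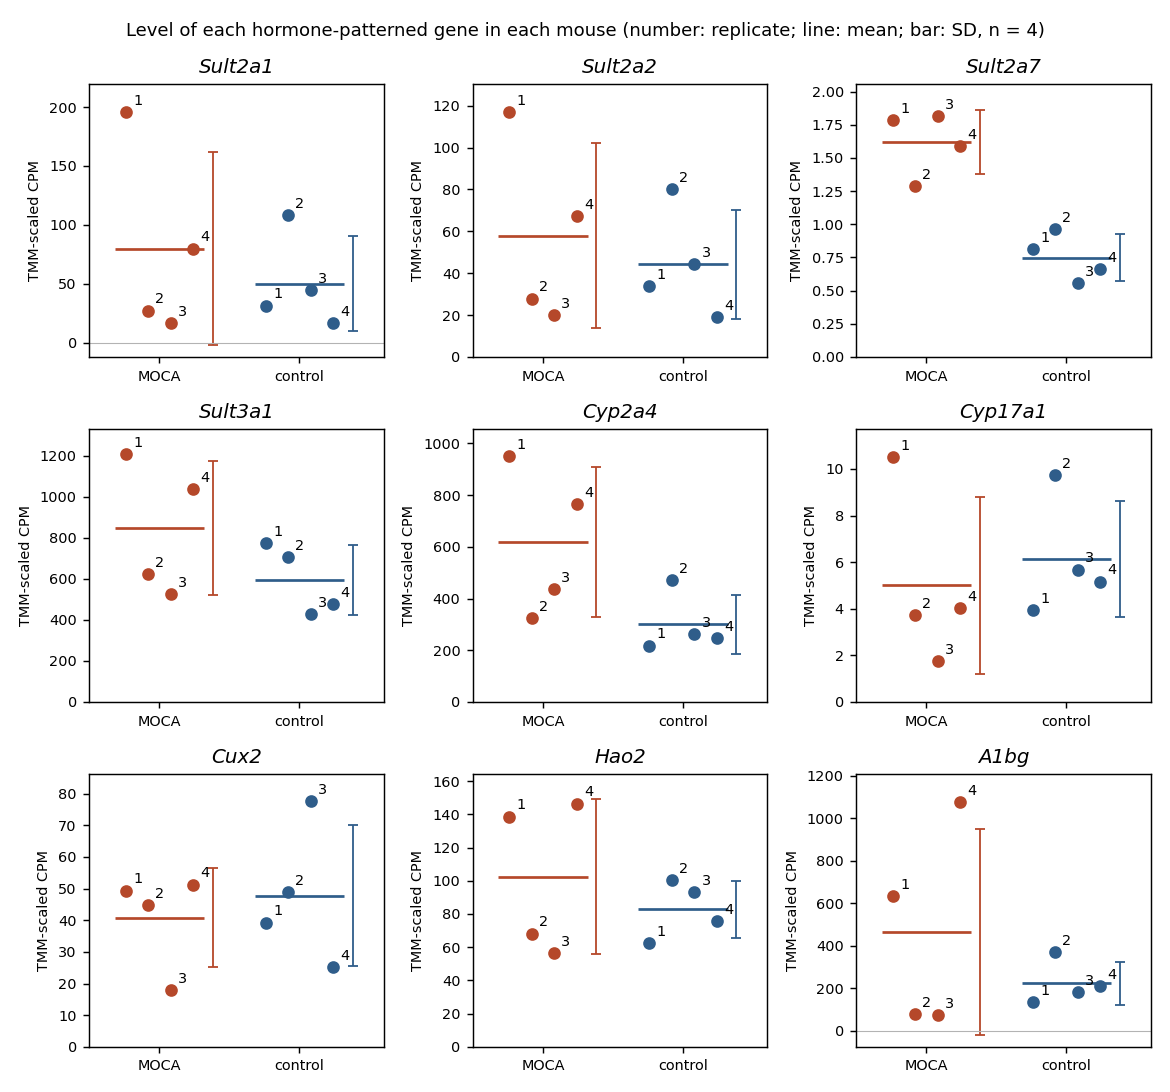
Level of each of the 9 genes in TMM-scaled CPM (vertical axis, linear, from 0 or just below) in MOCA mice (left) and control mice (right). Points are single mice numbered by replicate, horizontal lines are group means and bars are SD (n = 4). MOCA mice 1 and 4 and control mouse 2 are high in most panels; Sult2a7 is the panel in which the groups do not overlap.

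The question the study's design asks is which genes differ between MOCA and control livers. None of the 9 genes passed the test over all genes (limma, Benjamini-Hochberg adjusted p under 0.05 over 12008 genes), where 0.666% of tested genes passed; edgeR also called 0 of the 9 and DESeq2 called 1, Sult2a7, against 0.675% and 3.61% of tested genes. In the higher direction alone, limma called 0.400% of tested genes. At an unadjusted p under 0.05, 2 of the 9 passed in limma, against 17.5% of tested genes, and the same 2, Sult2a7 and Cyp2a4, in edgeR, against 17.7%. On the log2(value + 1) scale, log2 fold changes of MOCA over control were positive for 7 and negative for 2, with a median of 0.25, against a median of 0.0051 over all tested genes, of which 51.1% were positive.

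On the log2(value + 1) scale Cyp2a4 had the largest fold change, 0.98 with an SE of 0.32 and an adjusted p of 0.165 (limma), from 619 ± 289 in MOCA mice and 299.8 ± 116 in control mice (mean ± SD, n = 4 each). Its separate level is uncertain, and its close copy Cyp2a5 had 0.26 (SE 0.25, adjusted p = 0.620, limma). The sum of Cyp2a4 and Cyp2a5 was 1015 ± 384 in MOCA mice and 640 ± 239 in control mice. Sult2a7 had the smallest p: 0.58 with an SE of 0.13 and an adjusted p of 0.0662 (limma), from 1.62 ± 0.241 in MOCA mice and 0.749 ± 0.179 in control mice. On the scale of counts the order was another: edgeR put the change at 1.10 for Sult2a7 (adjusted p = 0.0623), 1.06 for A1bg and 1.04 for Cyp2a4 (adjusted p = 0.148), and DESeq2 at 1.11 for Sult2a7 (adjusted p = 0.0438), 1.06 for A1bg and 1.04 for Cyp2a4 (adjusted p = 0.178). Sult2a7 was past the threshold in limma with columns scaled to equal sums, without a filter on low values and with eBayes without trend (adjusted p = 0.0442, 0.0491 and 0.0413), and with 1 mouse left out its adjusted p was 0.0757 to 0.188. Groups did not overlap in 1 of the 9 genes, Sult2a7, against 10.5% of tested genes, 5.50% with MOCA mice higher. Since Sult2a7 passed the filter through the 4 MOCA mice alone, its groups had to be apart, and neither that count nor its p-values are read as support for a difference.

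For the other genes the difference between the group means was smaller than the pooled within-group SD, by little for Sult3a1 (0.47 against 0.50). The log2 fold change was 0.47 (SE 0.27) for Sult3a1, 0.37 (SE 0.70) for Sult2a1 and 0.24 (SE 0.52) for Sult2a2. It was 0.25 (SE 0.77) for A1bg, 0.20 (SE 0.28) for Hao2, -0.21 (SE 0.36) for Cux2 and -0.38 (SE 0.36) for Cyp17a1; the adjusted p of these 7 lay between 0.387 for Sult3a1 and 0.901 for A1bg (limma). For A1bg, edgeR gave a log2 fold change of 1.06 (adjusted p = 0.479), since the mean level was 464 ± 486 in MOCA mice and 223 ± 102 in control mice although the lowest values were in MOCA mice. The sign of the limma fold change of Sult2a1, Sult2a2, Hao2, A1bg and Cux2 turned when 1 mouse was left out: without MOCA mouse 1 it was -0.26 for Sult2a1, -0.21 for Sult2a2 and -0.20 for A1bg, without MOCA mouse 4 it was -0.45 for A1bg and -0.0063 for Hao2, and without MOCA mouse 3 it was 0.13 for Cux2. Control mice decided it as well: without control mouse 4 the value was -0.04 for Sult2a1 and -0.097 for Sult2a2, and without control mouse 3 it was 0.053 for Cux2. The Cyp17a1 value stayed negative but was -0.76 without MOCA mouse 1 (adjusted p = 0.219, limma), -0.073 without MOCA mouse 3 and -0.17 without control mouse 2.

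The scatter between mice of the same group was the main feature of these genes, and it was part of how they were chosen, so it is described without a test. The pooled within-group SD of log2(value + 1) had a median of 0.68 over the 9 genes, against 0.15 over the 12008 tested genes. It was 1.49 for A1bg, 1.35 for Sult2a1, 1.0 for Sult2a2, 0.69 for Cyp17a1, 0.68 for Cux2, 0.61 for Cyp2a4, 0.54 for Hao2 and 0.50 for Sult3a1. These 8 lay in the most variable 10% of tested genes, A1bg at rank 10 and Sult2a1 at rank 12 from the top. Sult2a7 had an SD of 0.14, at the 45.8th percentile, on a scale that compresses low values. Counting error alone gives a coefficient of variation of at most 6.27% for Sult2a1 in any MOCA library and 3.01% for A1bg, against measured coefficients of 103% and 105% in MOCA mice and 80.3% and 45.7% in control mice. For Cyp17a1 counting error reached 19.2% in MOCA libraries, against a measured 75.9%.

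**Figure D2:**
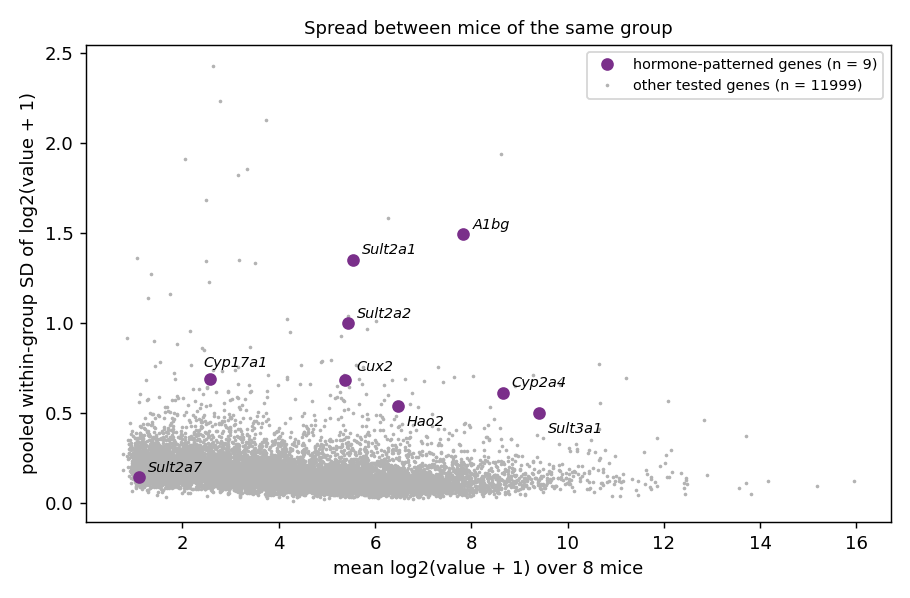
Pooled within-group SD of log2(value + 1) (vertical axis) against the mean log2(value + 1) over 8 mice (horizontal axis) for each of the 12008 tested genes; the 9 hormone-patterned genes are named. Of these, 8 lie above 0.50 and Sult2a7 lies at 0.14, near the median of 0.15 over all tested genes.

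In 8 of the 9 genes the SD of log2(value + 1) was larger among MOCA mice than among control mice, against 47.4% of tested genes; Sult2a7 was the exception, with 0.14 in MOCA mice and 0.15 in control mice. The median SD over the 9 genes was 0.71 in MOCA mice and 0.49 in control mice, against 0.14 in each group over all tested genes. The 9 genes share the same mice, so this count is not one of independent observations, and the difference in spread was not tested.

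The scatter was shared between genes. In SD units, the mean deviation of the 9 genes from their own group mean was 1.10, -0.73, -0.98 and 0.61 in MOCA mice 1 to 4 and -0.21, 0.81, -0.064 and -0.54 in control mice 1 to 4. MOCA mouse 1 and control mouse 2 were above their group mean in 9 of 9 genes and MOCA mouse 4 in 7, whereas MOCA mice 2 and 3 and control mouse 4 were above it in 1 gene each. Those single genes were Cux2 in MOCA mouse 2, Sult2a7 in MOCA mouse 3 and A1bg in control mouse 4. Control mouse 1 was above its group mean in 2 genes and control mouse 3 in 4. Among MOCA libraries the high mice 1 and 4 were the deeper ones, with 15970453 and 15551452 reads against 15024945 and 15324043 in mice 2 and 3; among control libraries the high mouse 2, with 16658054 reads, was neither the deepest nor the shallowest.

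**Figure D3:**
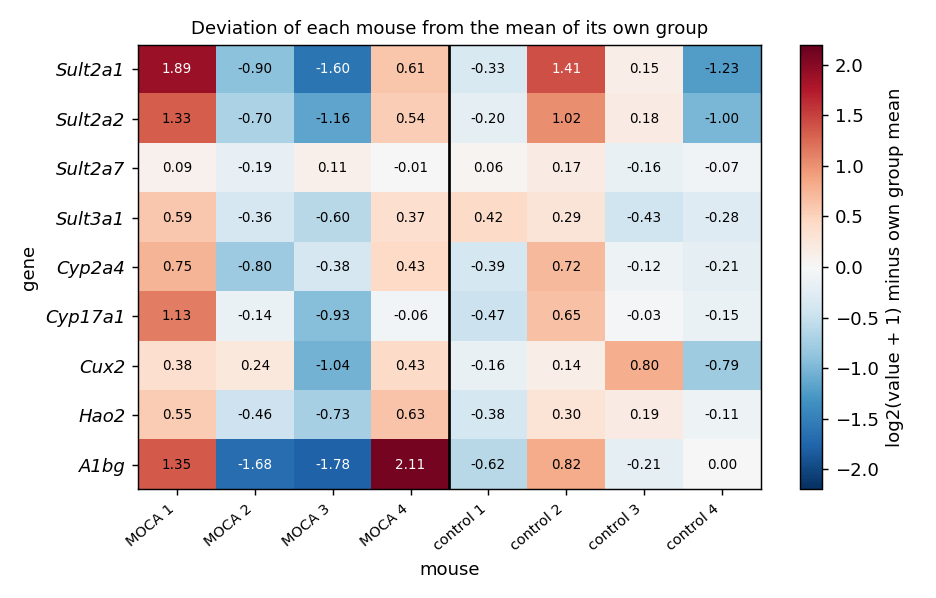
Difference of log2(value + 1) in each mouse from the mean of its own group, for the 9 genes (rows) in MOCA mice 1 to 4 (left of the line) and control mice 1 to 4 (right); red is above and blue below the group mean. MOCA mouse 1 and control mouse 2 are red in every row, and A1bg in MOCA mouse 4 (2.11) is the largest deviation.

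Correlations between the genes were computed on these deviations, so that a difference between MOCA and control livers does not enter. Over the 36 pairs, Pearson's r over 8 mice was positive in 35, with a median of 0.70, against 50.05% positive and a median of 0.001 over all pairs of tested genes. Spearman's rho had a median of 0.68. In the two-sided exact permutation test, which reassigns mice within each group in every possible way, 12 of the 36 pairs had an unadjusted p under 0.05, all with positive r, against 5.27% of the pairs of a member with a tested non-member (2.82% with positive r). The 36 pairs are not separate observations. The genes were chosen with their scatter between these mice known. Their median pooled within-group SD was 0.68, against 0.15 over all tested genes, so the background pairs are not matched for spread. The counts and p-values of pairs are therefore a description and not support for a shared pattern. Sult2a1 and Sult2a2 share sequence and had an r of 0.998, so their pairs with any other gene nearly repeat each other. No pair passed with Benjamini-Hochberg adjustment over the 36 pairs. The smallest p that this test can give is 0.00174, which for a single pair is 0.0625 after adjustment, so 1 pair alone could not pass.

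Sult2a1 and Sult2a2, the near-identical neighbours, had the highest correlation, with an r of 0.998 (exact permutation p = 0.00174, adjusted p = 0.0625) and a rho of 1 (exact permutation p = 0.00347, adjusted p = 0.125). Hao2 and A1bg, which lie on different chromosomes and share no stretch of 50 bases with another gene, followed with an r of 0.955 (exact permutation p = 0.0208, adjusted p = 0.141) and a rho of 0.976 (exact permutation p = 0.0208, adjusted p = 0.175). Sult2a1 and Cyp17a1 had an r of 0.893 (exact permutation p = 0.0122, adjusted p = 0.141; rho 0.905, exact permutation p = 0.0104, adjusted p = 0.125). Cyp2a4 had an r of 0.883 with Sult2a1 and 0.876 with Sult2a2 (exact permutation p = 0.0295 and 0.0365, adjusted p = 0.141 for both; rho 0.810 with exact permutation p = 0.0625 and adjusted p = 0.188 for both).

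Leaving out the mice farthest from the median of the first gene changed these values unevenly. The r of Sult2a1 and Sult2a2 was 0.997 without MOCA mice 1 and 3, and that of Hao2 and A1bg was 0.919 without MOCA mice 3 and 4. The r of Sult2a1 with Cyp17a1 was 0.739 without MOCA mice 1 and 3, and Cyp2a4 had 0.867 with Sult2a1 and 0.848 with Sult2a2. The relation of Cyp2a4 and Cyp17a1 rested on MOCA mouse 1 and control mouse 2, since its r of 0.779 was 0.318 without them. This was not particular to that pair. Without MOCA mice 1 and 3 the r of Sult3a1 with Cyp17a1 went from 0.632 to 0.108. That of Cyp17a1 with Cux2 went from 0.568 to 0.221. Over all pairs, 33 of 36 were positive after such removal and the median r was 0.56.

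Sult2a7 and Cux2 had the lowest correlations. Sult2a7 had a median r of 0.34 with the other members and Cux2 0.52, against 0.67 to 0.82 for the rest. The pair of Sult2a7 and Cux2 was the single negative one, with an r of -0.33 (exact permutation p = 0.462, adjusted p = 0.506; rho -0.40, exact permutation p = 0.363, adjusted p = 0.467), and the next lowest were Sult2a7 with Hao2 (0.13, exact permutation p = 0.802, adjusted p = 0.802; rho 0.14, exact permutation p = 0.792, adjusted p = 0.814) and with Cyp17a1 (0.23, exact permutation p = 0.618, adjusted p = 0.636; rho 0.095, exact permutation p = 0.861, adjusted p = 0.861). With its own neighbours Sult2a7 had an r of 0.39 (Sult2a1, exact permutation p = 0.372, adjusted p = 0.456) and 0.38 (Sult2a2, exact permutation p = 0.3802, adjusted p = 0.456), with a rho of 0.29 for both (exact permutation p = 0.535, adjusted p = 0.621). Without MOCA mouse 2 and control mouse 3, the farthest from its median, Sult2a7 had 0.17 with Cux2, -0.058 with Hao2 and 0.27 with Cyp17a1. For the pairs with Sult2a1 and Sult2a2 the mice left out were others, MOCA mice 1 and 3. There Sult2a7 had 0.66 with Sult2a1 and 0.63 with Sult2a2. Single mice decided the values with its neighbours: without MOCA mouse 3 they were 0.77 (Sult2a1) and 0.75 (Sult2a2), and without control mouse 2 they were 0.15 for both. With 9 to 28 reads per library, its order of mice carries counting error of up to 33.3% in a control library.

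**Figure D4:**
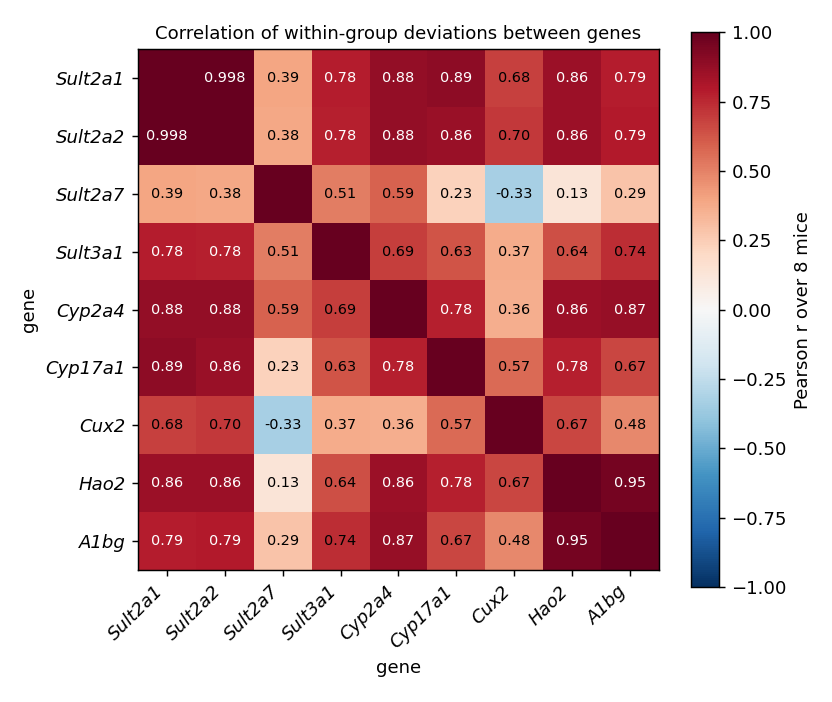
Pearson's r over 8 mice between the within-group deviations of each pair of the 9 genes (rows and columns); red is positive and blue negative. The pair of Sult2a1 and Sult2a2 is at 0.998 and that of Hao2 and A1bg at 0.955, and the rows of Sult2a7 and Cux2 are the palest.

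The 250 bases upstream of the transcription start were read for the 5 members in the RefSeq promoter table of GRCm38.p6, the assembly of mm10. The lines below give A1bg (chr15:60921271-60921520, minus strand), Hao2 (chr3:98893231-98893480, minus strand) and Sult3a1 (chr10:33857472-33857721, plus strand), the first of these because they were the most correlated pair with no shared sequence and the last because it held both motifs searched; capitals mark ATTGAT, a core letter sequence recognised by HNF6, and TTCNNNGAA, the core of STAT5 sites, searched on both strands.
A1bg: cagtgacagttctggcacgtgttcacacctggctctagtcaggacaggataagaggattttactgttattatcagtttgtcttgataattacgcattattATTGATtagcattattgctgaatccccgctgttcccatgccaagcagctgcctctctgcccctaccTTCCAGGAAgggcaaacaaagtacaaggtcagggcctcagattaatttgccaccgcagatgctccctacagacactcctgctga
Hao2: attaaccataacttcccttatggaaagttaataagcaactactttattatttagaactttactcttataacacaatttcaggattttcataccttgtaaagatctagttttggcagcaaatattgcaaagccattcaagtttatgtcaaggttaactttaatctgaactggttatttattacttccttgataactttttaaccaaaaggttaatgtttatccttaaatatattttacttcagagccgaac
Sult3a1: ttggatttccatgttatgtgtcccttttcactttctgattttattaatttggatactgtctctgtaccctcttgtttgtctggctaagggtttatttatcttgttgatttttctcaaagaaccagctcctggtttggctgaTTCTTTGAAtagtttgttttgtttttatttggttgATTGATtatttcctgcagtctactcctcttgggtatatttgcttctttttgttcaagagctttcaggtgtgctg
The windows of A1bg and Cyp2a4 adjoin the gene spans given above, whereas those of Hao2, Sult3a1 and Cux2 lie inside the spans, upstream of a start that the table places within the gene. A1bg held ATTGAT starting at -150 and TTCNNNGAA starting at -84, Sult3a1 held them starting at -74 and -109, and in neither did the matches overlap. The windows of Hao2, Cyp2a4 and Cux2 (both of its starts) held no match to either. Over the 32851 upstream windows of the table, 6.72% held ATTGAT and 7.02% held TTCNNNGAA. A match describes letters in a window and not a bound site.

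Other genes were ranked by their likeness to the members, measured as the median of r with the 9 genes over the 8 mice and given as a description; the points are the same 8 libraries for every gene. Of 11999 tested genes that are not members, 71 had a likeness of at least 0.8, which is 0.592%, and 45 had one of -0.8 or less. Among those with a mean level of at least 5, the 10 most alike were Hgfac, Fam20b, Klhl26, Kat2b, Cyp2a22, Eci3, Met, Xrcc1, Slc27a1 and Sult2a6, with values from 0.90 to 0.87. Cyp2a22 and Sult2a6 are relatives of members. Eci3, an enoyl-CoA isomerase, had a wide scatter like the members, at 8.4, 2.51, 1.68 and 10.1 in MOCA mice, against 2.27, 8.63, 3.70 and 3.42 in control mice. Hgfac, the activator of hepatocyte growth factor and the most alike of these 10, varied far less, at 176, 138, 130.4 and 164 in MOCA mice, against 169, 207, 176 and 181 in control mice. The 5 least alike were Dhx38, Zfp324, Abca7, Fat1 and Pear1, with values from -0.88 to -0.86; none of these 15 genes passed the test between MOCA and control livers (limma, lowest adjusted p = 0.105, for Met; edgeR and DESeq2 calls are given for the members only).

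Other genes known to differ between the sexes in mouse liver mostly varied between mice in the same direction as the members if female-predominant. Of 45 tested female-predominant genes outside the set, 40 had a positive likeness, with a median of 0.63, against 50.7% positive and a median of 0.0071 over the tested non-members. The 45 include Gm4794, the older symbol of Sult3a2 (0.66), and Cyp2a22, a relative of Cyp2a4 (0.87), so the list is not wholly separate from the members. Cyp3a41b and Cyp3a16, P450 genes of the female liver with near-identical copies, which makes their separate levels uncertain, had a likeness of 0.84 each. Cyp3a41b was 173, 0.580, 4.08 and 39.7 in MOCA mice, against 2.67, 5.80, 1.17 and 0.660 in control mice, so its highest values were in MOCA mice 1 and 4 as well. Slc22a27 and Hamp2, an organic anion transporter gene and a hepcidin gene, had a likeness of 0.84 each and Cyp2c69 one of 0.82. Adam11, Rdh9 and Cyp4b1 went the other way, with -0.60, -0.59 and -0.42. Between MOCA and control livers 1 of the 45 was higher and 2 were lower (limma), against 0.400% and 0.266% of tested genes. The higher one was Cyp2b10, which is also a target of the receptor CAR, by 1.92 (SE 0.22, adjusted p = 0.00468). The lower ones were Ntrk2 and Slco1a4, by -1.19 and -0.55 (adjusted p = 0.0105 and 0.0328). The next by p were Fmo1, Abcc4, Cd36 and Abcd2, with log2 fold changes of 0.34, 0.47, 0.82 and -0.54 and adjusted p between 0.0984 and 0.193 (limma). An unadjusted p below 0.05 (limma) held for 10 of the 45, against 17.5% of tested genes.

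Male-predominant genes ran mostly opposite to the members. Of 29 tested, 23 had a negative and 6 a positive likeness, with a median of -0.33, against 50.7% positive over the tested non-members. Egfr, the epidermal growth factor receptor, had -0.76, the organic anion transporter Slco1a1 -0.71 and the P450 Cyp2d9 -0.71. Elovl3, Sult5a1 and Serpina1e went the other way, with 0.30, 0.27 and 0.20. Cyp2d9 was 18.1, 63.3, 80.4 and 39.6 in MOCA mice, against 44.2, 58.0, 50.2 and 74.95 in control mice. The lowest MOCA values were thus in mice 1 and 4, where the female-predominant members other than Sult2a7 were highest. The control mice did not show this opposite order throughout. Control mouse 2, above its group mean in every member, had 58.0, which was not among the low values. Control mouse 1, below its group mean in most members, had the lowest value, 44.2. Control mouse 4, also below it in most members, had the highest, 74.95. The major urinary proteins, also a family of near-identical copies with uncertain separate levels, ranged from Mup2, with a likeness of 0.39, to Mup1, with -0.53. Between these, Mup21 had 0.064, Mup3 -0.065, Mup17 -0.073, Mup20 -0.24 and Mup7 -0.36. Between MOCA and control livers none of the 29 passed (limma), against 0.666% of tested genes. Of them, 8 had an unadjusted p below 0.05 (limma), against 17.5% of tested genes. C8b, Gstp1, Mup20 and C9 came nearest, with log2 fold changes of -0.51, 0.42, 0.49 and -0.46 and adjusted p between 0.144 and 0.193 (limma).

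Within growth hormone signalling the genes were not of 1 direction. Of 21 tested, 11 had a positive and 10 a negative likeness, with a median of 0.075. Stat5b, the transcription factor that carries the signal, had 0.86 and was 149, 115, 113 and 139.8 in MOCA mice, against 125, 134, 127 and 128 in control mice. The prolactin receptor Prlr had 0.69, the oestrogen receptor Esr1 0.64, Igfals 0.61 and the growth hormone receptor Ghr 0.58. On the negative side Igfbp3 and Foxa1 had -0.67 each, Irs1 and Onecut1 (HNF6) -0.45 each and the repressor Bcl6 -0.35. Socs2, a feedback inhibitor of the pathway, was the single call between groups, lower by -0.97 in MOCA livers (SE 0.17, adjusted p = 0.0308, limma) with a likeness of -0.35. Over all tested genes 0.666% were called. Onecut1, Esr1, Igfbp3 and Cish were next by p, with log2 fold changes of -0.92, 0.26, -0.33 and -0.93 and adjusted p between 0.0797 and 0.214. An unadjusted p below 0.05 (limma) held for 6 of the 21, against 17.5% of tested genes. Prlr and Bcl6 also stand in the sex lists.

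**Figure D5:**
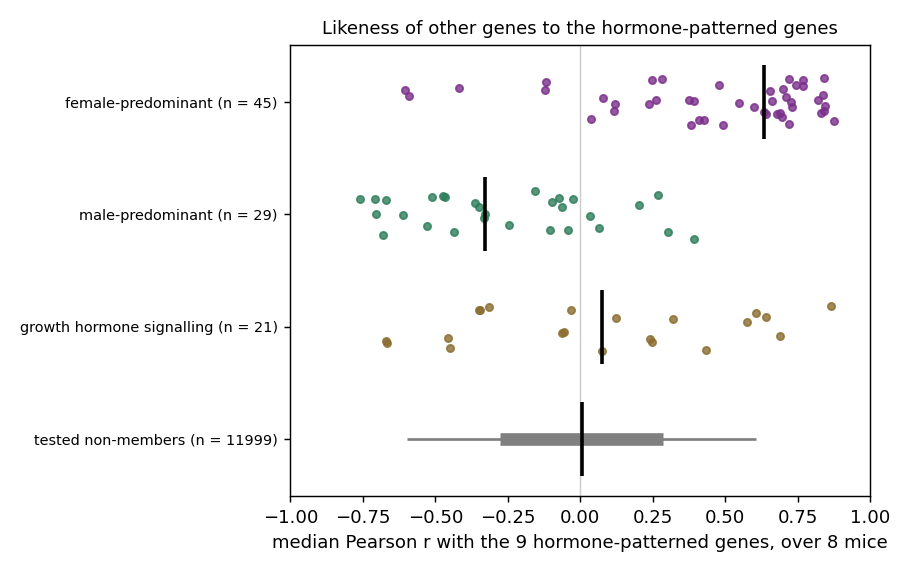
Likeness (median Pearson's r with the 9 hormone-patterned genes over 8 mice, horizontal axis) of single genes in 3 lists (points, with the list median as a black line) and over the 11999 tested non-members (thick bar from the 25th to the 75th percentile, thin line from the 5th to the 95th). The median is 0.63 for female-predominant, -0.33 for male-predominant and 0.075 for growth hormone signalling genes, against 0.0071 for tested non-members.

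Lists of other processes and cell types were examined for movement with the same mice. The median likeness was 0.35 for 12 sulfonation genes, 0.42 for 14 CAR targets, 0.20 for 12 glucocorticoid-responsive genes and 0.12 for 15 circadian clock genes. Of these, 5 CAR targets (Cyp2b10, Cyp2c29, Gstm3, Aldh1a1 and Aldh1a7) were higher in MOCA livers and no gene of the others passed (limma). Over all tested genes 0.666% passed, 0.400% in the higher direction. In limma 9 CAR targets had an unadjusted p below 0.05, as did 5 sulfonation, 0 glucocorticoid and 3 clock genes. The share over all tested genes was 17.5%. The livers held the hepatocyte markers at high level in all mice, with a sum over 8 genes of 80720 to 92446 in MOCA mice and 89922 to 106932 in control mice and a median likeness of -0.20. Stellate cell and fibroblast markers, all 7 with a negative likeness (median -0.44), summed to 381, 450.0, 479 and 435 in MOCA mice and 512, 462, 509 and 469 in control mice; their part in the result was not tested. Median likeness was -0.35 for sinusoidal endothelium, -0.30 for cholangiocytes, 0.15 for Kupffer cells and macrophages and 0.16 for red cells. Of the steroidogenic markers, which would mark adrenal or gonadal tissue that also makes some of these enzymes, 5 of 8 were not listed, and the sum of the rest was 2.14 to 3.31 in MOCA mice and 2.88 to 4.20 in control mice. Lymphocyte, granulocyte, pancreas, adipocyte and kidney lists each had at most 1 tested gene, and the dividing cell list had 2, with a median likeness of 0.45. No gene of the cell type lists passed (limma). In limma an unadjusted p below 0.05 held for 4 of 4 red cell and 3 of 7 endothelial genes. It held for 2 of 8 hepatocyte and 1 of 7 stellate genes, against 17.5% over all tested genes. Red cell genes all had positive log2 fold changes (0.52 to 0.75) and summed to 472 to 525 in MOCA mice, against 252 to 443 in control mice, and the 8 hepatocyte markers all had negative ones (median -0.15); their part in the results was not tested. In bulk tissue fewer cells of a type and less RNA per cell cannot be told apart.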

How the data were processed

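Per the labels' protocols, RNA was isolated with an RNeasy kit, ribosomal RNA was removed, and strand-specific libraries were built with MGIEasy reagents. Trimmomatic 0.38, Bowtie2, RSEM, edgeR and the build mm10 are named in the submitters' processing notes without a role; no source states the strand setting. The authors deposited 1 table of scaled signal (normalised counts), 1 column per mouse. All values (100%, tolerance 0.001) were whole multiples of 1 read, and recovered reads gave the deposited values again as TMM-scaled CPM. 1 read was worth 0.0581 to 0.0648. The strain label names F1-TKm30 and the treatment label C57BL mice; the first is used. The labels number the mice and say no more, so p-values measure the spread between these samples.

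The test was limma 3.58.1 (R 4.3.3) on log2(value + 1), eBayes with trend, for 12008 genes with at least 1 in 4 or more libraries. edgeR 4.0.16 and DESeq2 1.42.0 were run on recovered reads. Spread and correlation used deviations from the group mean. Settings tried are given at the end. The rule for named genes takes all members; the 5 highest and 3 lowest pairs and pairs within a subfamily; the 10 most and 5 least alike genes; and, from each list, called genes and 4 others by p. These last are given for the sex and growth hormone lists, and other lists as counts with called genes, and genes named for their likeness within a list were chosen after their values were seen. Members, lists and tests were chosen with earlier results of these data known. The limma test and the likeness measure were tested on simulated data.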

Additional observations from a re-analysis of the deposited data

How the results depend on the processing

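Of the 9 members, 0 were called, and 1 (Sult2a7) was called with columns scaled to equal sums, without a filter on low values, with eBayes without trend and with DESeq2. Over all genes, 80 were called, against 171 with equal column sums, 425 with DESeq2, 13 at an adjusted p under 0.01 and 29 to 77 with 1 mouse left out. With the replicate block 30 genes and 0 members were called. Same-numbered mice had correlations of their deviations of -0.0735, -0.00138, 0.036 and -0.0441. Between differently numbered mice these ran from -0.161 (MOCA mouse 2 with control mouse 1) to 0.212 (MOCA mouse 4 with control mouse 1). The values show no pairing by number, but they cannot exclude a weak one. Member fold changes kept their sign under the scaling, pseudocount, filter, variance and block settings. With 1 mouse left out, the log2 fold change ranged from -0.26 to 0.90 for Sult2a1, -0.21 to 0.62 for Sult2a2, -0.48 to 0.13 for Cux2, -0.0063 to 0.45 for Hao2, -0.45 to 0.85 for A1bg and -0.76 to -0.073 for Cyp17a1.

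Pairs with positive r numbered 33 to 35 with 1 mouse left out, and the median r was 0.66 to 0.79. No pair passed the adjusted permutation test in the settings tried, except when group means were not subtracted. There 2 passed, Sult2a1 with Sult2a2 and Hao2 with A1bg. That setting reassigned mice across both groups, which allows smaller p. Sult2a1 with Sult2a2 had an exact permutation p of 4.96e-05 there, at an r of 0.997. In that setting Sult2a7 and Cyp17a1 had an r of -0.20. With 1 mouse left out fewer reassignments exist, so passing was harder. The exact permutation p of Sult2a1 with Sult2a2 was then 0.00694. With 1 mouse left out the r ranged from -0.041 to 0.64 for Sult2a7 with Cyp17a1, -0.18 to 0.50 with Hao2, 0.15 to 0.77 with Sult2a1 and 0.15 to 0.75 with Sult2a2. The number of members among the most variable genes was 8 under each setting tried, the most variable 5% included. Depth limits Sult2a7, and to a lesser degree Cyp17a1; intervals of counting error do not cover differences between mice.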
